A study of Ovis aries with 10 samples.

Results

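The genes described here are 10 genes of vascular mural cells, the pericytes of capillaries and the smooth muscle cells of arterioles, in RNA sequencing counts from the mediobasal hypothalamus of the ewe. They are the receptors NOTCH3 and PDGFRB, the surface proteins MCAM and AOC3, the signalling regulator RGS5, the potassium channel subunits ABCC9 and KCNJ8, and the contractile proteins ACTA2, TAGLN and MYH11. The members were found by their symbols in the count table, and all 10 of the 10 were present among its 33775 genes. The set was selected on the luteal against follicular contrast, being built round NOTCH3, which was chosen by its p-value, one of the smallest in this table. The phase values of the members are therefore given as a description, without a test of the members.

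Libraries came from adult Ile-de-France ewes in the luteal phase, when the corpus luteum secretes progesterone, and from ewes of the same breed in the follicular phase, when progesterone is low and oestradiol rises. Each phase had 5 libraries, numbered 1 to 5, and in each library equal amounts of RNA from 2 ewes were pooled, so that 10 ewes per phase and 20 in all contributed, each to 1 library. No agent or genetic change is named in the labels, and the timing of the phases is not given in the sources used here. In its title the series asks what progesterone does to the transcriptome of this region, and the design holds 1 comparison, luteal against follicular. Progesterone and oestradiol differ together between these phases, so the comparison cannot separate the effect of progesterone. In mixes of whole tissue, fewer cells of a type and less RNA per cell cannot be told apart.

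Mural cells wrap the endothelial tube and set vessel diameter and barrier properties. Pericytes are recruited by PDGF-B from endothelium acting on PDGFRB, and NOTCH3, a receptor activated by JAG1 on endothelium, keeps arteriolar smooth muscle mature. Contraction depends on smooth muscle actin and myosin, whereas ABCC9 and KCNJ8 together form the ATP-sensitive potassium channel that relaxes mural cells. In the median eminence, within the sampled region, capillaries are fenestrated and take up releasing hormones.

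Library totals ran from 28571863 to 42358557 reads in luteal and from 20644992 to 43193449 reads in follicular libraries. Levels are given as CPM, the reads of a gene relative to the scaled total of its library, and are compared between libraries and not between genes, since transcript lengths were not used here. Neuron markers of the fixed list were all detected, with a summed level of 648 to 916 CPM in luteal and 781 to 909 CPM in follicular libraries. The first principal component of the libraries, the axis that held the most variation over all genes, accounted for 51% of the variance. On it the luteal libraries lay from -14.4 to 58.2 and the follicular ones from -61.6 to 48.1, with follicular 1 and 3, the smallest libraries, at the low end and luteal 5, follicular 5 and luteal 3 at the high end.

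The receptor and surface genes averaged higher in luteal libraries and the contractile genes averaged lower, while the signalling and channel genes were split. Of the 10 members, 6 averaged higher and 4 lower in luteal libraries, with a median log2 fold change of 0.25 for luteal over follicular. Over all 18276 genes tested 51.5% averaged higher and the median was 0.01. The edgeR quasi-likelihood test called 0 of the 10 members after adjustment, and 0% of all genes tested. At an unadjusted p under 0.05 it had 3 members (NOTCH3, MCAM and AOC3) and 2083 genes, or 11.4%, and DESeq2 called 2 members, NOTCH3 and AOC3, among 35 genes, or 0.227% of those it tested. Luteal and follicular values did not overlap for 2 members, both higher in luteal libraries, where 0.607% of all genes tested were separated in that direction and 1.12% in either. Since the same contrast chose the set, nothing is read from these counts.

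**Figure D1:**
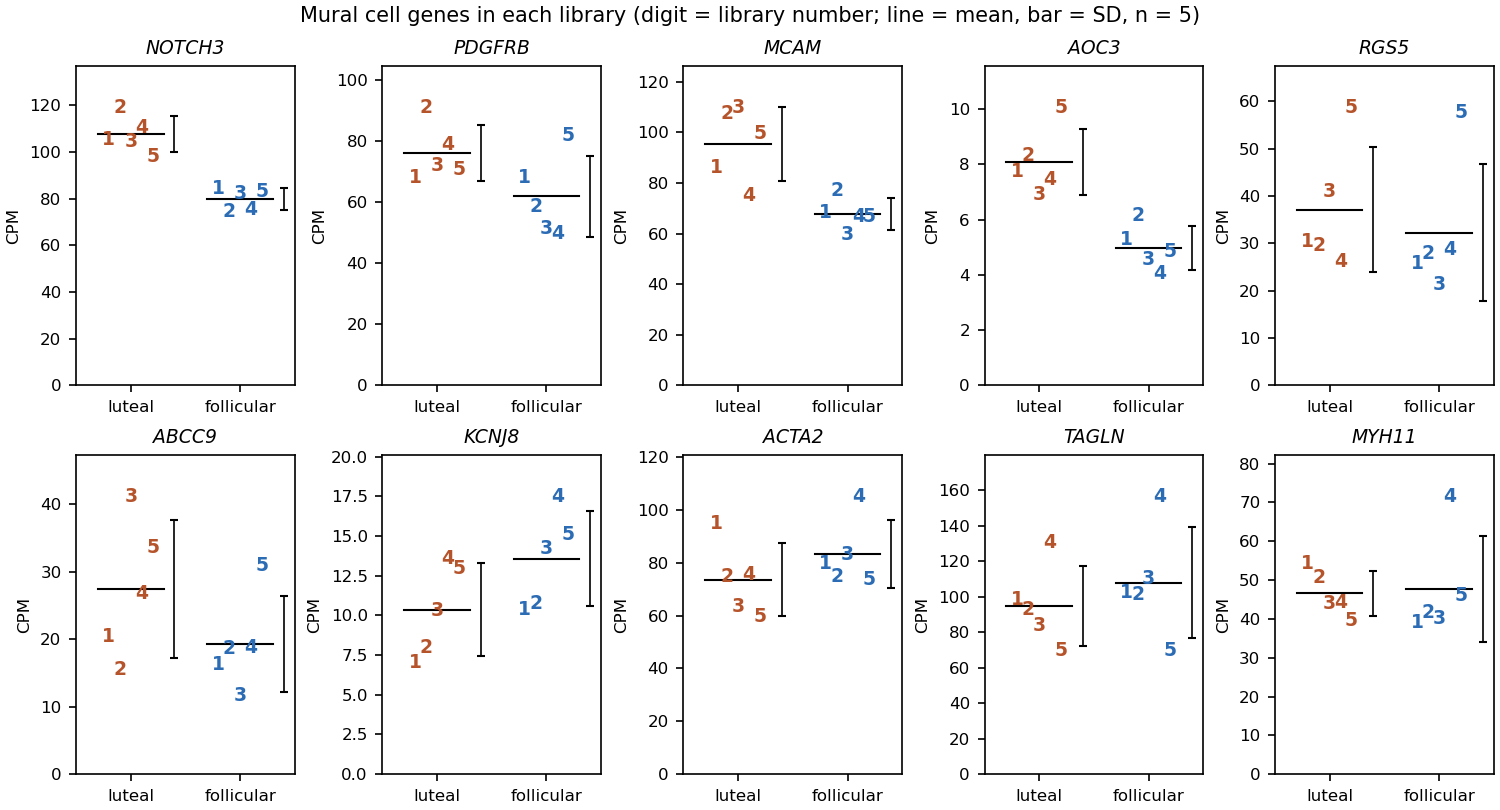
Level of each of the 10 mural cell genes in CPM (vertical axes, starting at 0) in luteal and follicular libraries. Digits mark libraries by number, lines the mean and bars the SD of 5 libraries. NOTCH3 and AOC3 are separated by phase, while luteal 5 and follicular 5 stand high in RGS5 and follicular 4 stands high in ACTA2, TAGLN and MYH11.

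NOTCH3, the mural cell Notch receptor, was at 105, 119, 105, 111 and 98.3 CPM in luteal libraries 1 to 5, against 84.6, 74.5, 82.0, 75.5 and 83.2 CPM in follicular libraries 1 to 5. The lowest luteal value, in luteal 5, lay above the highest follicular value, in follicular 1. The mean was 107.6 ± 7.73 CPM in luteal and 80.0 ± 4.63 CPM in follicular libraries (SD, n = 5 each), a log2 fold change of 0.43 (SE 0.08). Its spread within a phase was small, with an SD of 0.09 on the log2 scale. Of the 500 genes nearest to it in abundance 7.19% had a smaller SD, and a rule that ranks genes by p favours a small SD.

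PDGFRB, the receptor through which pericytes are recruited, was at 68.2, 90.8, 72.0, 78.9 and 70.7 CPM in luteal libraries, against 68.0, 58.6, 51.3, 49.8 and 81.8 CPM in follicular libraries. The phases overlapped through follicular 5, which had more than every luteal library except luteal 2. The log2 fold change was 0.30 (SE 0.15) with all libraries and 0.42 without follicular 5.

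MCAM, an adhesion molecule of mural cells that endothelium also carries, was at 86.0, 107, 109.7, 75.2 and 99.4 CPM in luteal libraries, against 68.5, 77.0, 59.8, 66.6 and 66.9 CPM in follicular libraries. Luteal 4 lay below follicular 2, and the other luteal libraries lay above all follicular ones. The means were 95.5 ± 14.6 CPM in luteal and 67.8 ± 6.15 CPM in follicular libraries (SD, n = 5 each), with a log2 fold change of 0.50 (SE 0.12).

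AOC3, a surface amine oxidase of vascular smooth muscle and fat cells, was at 7.73, 8.33, 6.93, 7.46 and 10.1 CPM in luteal libraries, against 5.28, 6.16, 4.56, 4.04 and 4.83 CPM in follicular libraries. All 5 luteal values lay above the highest follicular value, and the log2 fold change of 0.70 (SE 0.16) was the largest of the 10 members. These levels rest on 215 to 427 reads in luteal and 86 to 222 reads in follicular libraries. AOC2, a related amine oxidase gene that lies next to AOC3 in the reference gene table, had 1434 to 2218 reads in luteal and 1020 to 2151 reads in follicular libraries. It averaged 47.8 ± 4.34 CPM in luteal and 54.3 ± 4.36 CPM in follicular libraries (SD, n = 5 each; edgeR log2 fold change -0.18, SE 0.10, adjusted p = 0.432). How the counting treated reads shared by both genes is not given, so the AOC3 value is uncertain to that extent.

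RGS5, a regulator of G protein signalling used as a pericyte marker, was at 30.5, 29.5, 40.9, 26.2 and 58.6 CPM in luteal libraries, against 25.8, 27.8, 21.4, 28.6 and 57.6 CPM in follicular libraries. The library numbered 5 was the highest of each phase, and the phases overlapped through almost their whole range. Its log2 fold change of 0.20 (SE 0.29) depended on single libraries, being -0.02 without luteal 5, 0.08 without follicular 3, 0.30 without luteal 4 and 0.52 without follicular 5. Without follicular 1 and 3 together it was -0.03.

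ABCC9, the sulphonylurea receptor subunit of the mural potassium channel, was at 20.4, 15.5, 41.1, 26.8 and 33.6 CPM in luteal libraries, against 16.3, 18.6, 11.6, 18.8 and 31.0 CPM in follicular libraries. Luteal 1, 2 and 4 lay within the follicular range. The log2 fold change was 0.51 (SE 0.29), and 0.32 without luteal 3, 0.27 without follicular 1 and 3 together and 0.75 without follicular 5.

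KCNJ8, the pore subunit of the same channel, was at 7.05, 7.97, 10.3, 13.6 and 12.9 CPM in luteal libraries, against 10.4, 10.8, 14.2, 17.5 and 15.1 CPM in follicular libraries. It was the member with the most negative log2 fold change, -0.39 (SE 0.22), opposite in sign to that of its partner ABCC9, and the phases overlapped. An uncharacterised non-coding gene overlaps both ABCC9 and KCNJ8 in the reference gene table. The related channel subunits ABCC8 and KCNJ11, which form the neuronal and beta cell type of the channel, had log2 fold changes of 0.19 (SE 0.14, edgeR adjusted p = 0.49) and -0.02 (SE 0.10, edgeR adjusted p = 0.923).

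ACTA2, smooth muscle alpha actin, was at 94.7, 74.7, 63.5, 75.5 and 59.6 CPM in luteal libraries, against 79.5, 74.6, 83.2, 105 and 73.5 CPM in follicular libraries. The means were 73.6 ± 13.7 CPM in luteal and 83.2 ± 12.8 CPM in follicular libraries (SD, n = 5 each), with overlapping values and a log2 fold change of -0.18 (SE 0.14). It was -0.08 without follicular 4, -0.11 without luteal 5 and -0.28 without luteal 1. The actins ACTA1, ACTC1 and ACTG2 are closely similar in sequence, and reads shared among them make actin counts uncertain. ACTA1 averaged 25.4 ± 3.92 CPM in luteal and 27.9 ± 7.51 CPM in follicular libraries (SD, n = 5 each).

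TAGLN, the actin-binding protein transgelin, was at 98.2, 92.9, 83.6, 130.4 and 69.8 CPM in luteal libraries, against 102, 101, 110.1, 156.5 and 69.6 CPM in follicular libraries. The lowest value of each phase was in library 5 and the highest in library 4, and the log2 fold change was -0.18 (SE 0.21). MYH11, the smooth muscle myosin heavy chain, was at 54.3, 50.7, 44.1, 44.2 and 39.6 CPM in luteal libraries, against 39.1, 41.7, 40.0, 71.5 and 46.0 CPM in follicular libraries. Its log2 fold change was -0.03 (SE 0.17) with all libraries and 0.16 without follicular 4, the library highest in all 3 contractile genes among the follicular ones. For TAGLN the log2 fold change was -0.01 without follicular 4, -0.09 without luteal 5, -0.31 without follicular 5 and -0.33 without luteal 4. For MYH11 it was between -0.09 and 0.16 with any 1 library left out, and -0.18 without follicular 1 and 3 together.

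**Figure D2:**
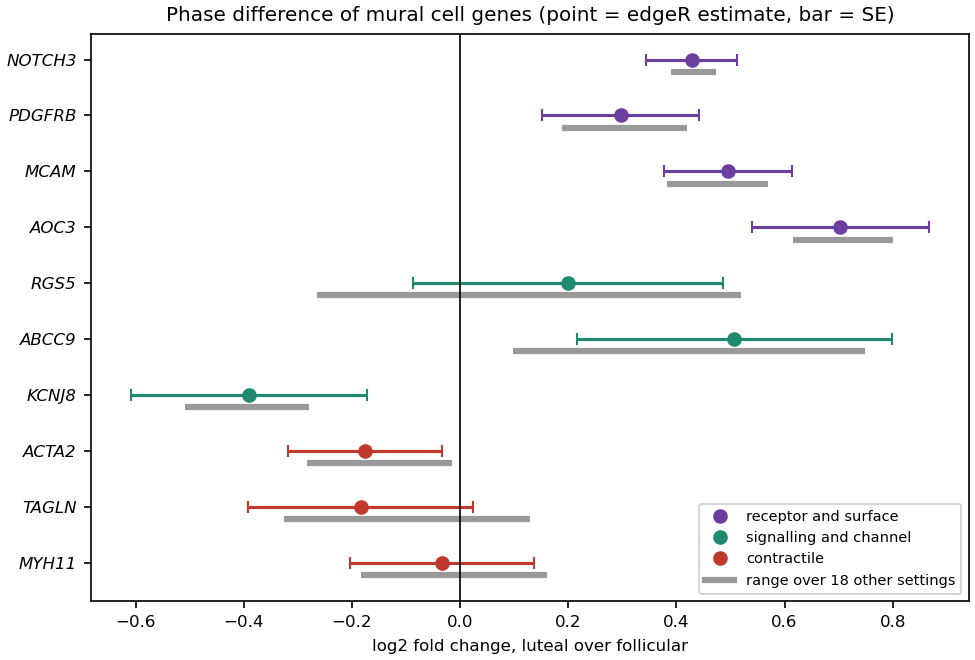
Log2 fold change, luteal over follicular, of the 10 mural cell genes (points, edgeR estimates, with SE as coloured bars). Grey bars give the range over 18 other settings, of the processing or with libraries left out. The 4 receptor and surface genes lie between 0.30 and 0.70 and their ranges stay above 0, as does that of ABCC9. The ranges of KCNJ8 and ACTA2 stay below 0, and those of RGS5, TAGLN and MYH11 cross 0. Since the same contrast chose the set, these ranges are a description.

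The members were chosen with earlier results of these data known, and a small p favours a small SD, as given for NOTCH3 above. How far they varied between libraries of the same phase is therefore a description. Within-phase SDs of log2 CPM ran from 0.09 for NOTCH3 to 0.53 for ABCC9. RGS5 (0.51) and ABCC9 had a larger SD than 94% and 91.8% of the 500 genes nearest to each in abundance. TAGLN (0.38) exceeded 88%, and AOC3 (0.21) exceeded 14.6%. The coefficient of variation of RGS5 was 35.6% in luteal and 44.8% in follicular libraries, and that of NOTCH3 7.19% in luteal and 5.79% in follicular libraries.

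Whether the members vary together was asked after centring each phase on its own mean, over all 10 libraries and all 45 pairs. Among contractile genes Pearson r was 0.78 for ACTA2 with MYH11, 0.73 for ACTA2 with TAGLN and 0.54 for TAGLN with MYH11. The last pair had an unadjusted exact p of 0.193 (rho = 0.48, exact p = 0.195), and its r was 0.02 to 0.68 with 1 library left out and 0.36 without follicular 4 and 5. In luteal libraries ACTA2 and MYH11 peaked in luteal 1 and TAGLN in luteal 4, and all 3 peaked in follicular 4. In follicular 5 TAGLN was at its lowest follicular level, while MYH11 was higher there than in every follicular library except follicular 4. RGS5 and ABCC9 also went together (r = 0.79), and RGS5 and TAGLN went opposite ways (r = -0.77). NOTCH3 went with PDGFRB (r = 0.65) and had r between -0.42 and 0.08 with the other 8 members. By an exact permutation test of libraries within phase, two-sided, 5 of the 45 pairs had an unadjusted p under 0.05 and 0 passed after adjustment, the smallest adjusted exact p being 0.31. By rank correlation 1 pair passed, ACTA2 with TAGLN (rho = 0.92, exact p = 0.000556, adjusted exact p = 0.025). How often pairs of other genes reach such values was not computed, so these counts do not set the members apart. By Pearson r TAGLN ranked 1025th of 16207 genes as seen from ACTA2.

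The r of the 5 pairs was also taken with libraries left out. Without the 2 libraries farthest from the median of its first gene, RGS5 with ABCC9 kept r = 0.74, ACTA2 with TAGLN r = 0.81 and NOTCH3 with PDGFRB r = 0.60. By contrast ACTA2 with MYH11 had r = 0.37 without luteal 1 and follicular 4, and RGS5 with TAGLN had r = -0.31 without luteal 5 and follicular 5. With 1 library left out, their r was 0.681 to 0.827 and -0.93 to -0.598. For RGS5 with ABCC9, ACTA2 with TAGLN and NOTCH3 with PDGFRB it was 0.679 to 0.858, 0.575 to 0.884 and 0.545 to 0.797. Leaving out the extremes of 1 gene narrows its range, so these values do not rank the pairs. The rank correlations of these pairs were 0.77 (exact p = 0.0214) for RGS5 with ABCC9, 0.66 (exact p = 0.0585) for NOTCH3 with PDGFRB, 0.65 (exact p = 0.0426) for ACTA2 with MYH11 and -0.65 (exact p = 0.0657) for RGS5 with TAGLN. The Pearson exact p was 0.0151 for RGS5 with ABCC9, 0.0476 for NOTCH3 with PDGFRB, 0.0276 for ACTA2 with TAGLN, 0.0125 for ACTA2 with MYH11 and 0.0242 for RGS5 with TAGLN.

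**Figure D3:**
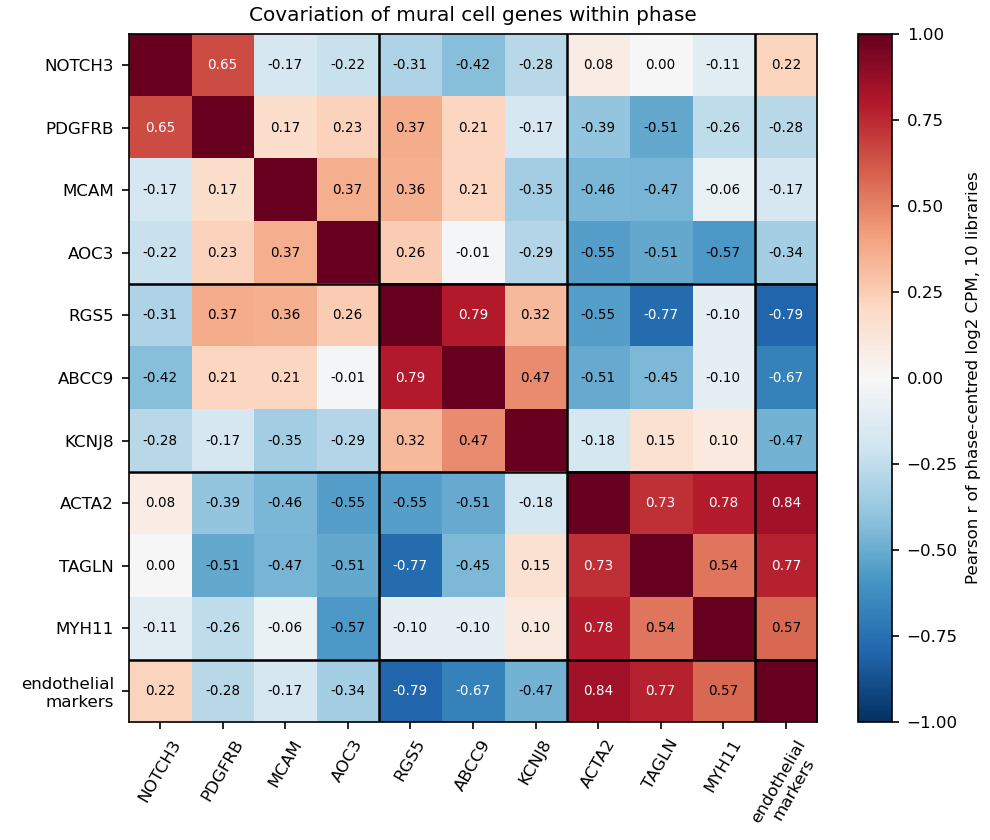
Pearson r of phase-centred log2 CPM over 10 libraries for every pair of the 10 mural cell genes and for each gene with the mean of 12 endothelial markers, with black lines between the receptor, signalling and contractile groups. Red cells mark the contractile genes among themselves and with endothelial markers, and blue cells mark RGS5 and ABCC9 with endothelial markers (r = -0.79 and -0.67).

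Members differed in their relation to the first principal component within phase. RGS5 followed it most closely, with r = 0.91 (exact permutation p = 0.00111, adjusted p = 0.0122 over 11 relations; rho = 0.83, exact p = 0.0102) and r = 0.77 without luteal 5 and follicular 5. It was the single relation of the 11 that passed by Pearson correlation, and 0 passed by rank correlation. The component held 51% of the variance over all genes, and how many other genes follow it as closely was not computed. Nothing particular to RGS5 is therefore read from this result. ABCC9 had r = 0.77, TAGLN -0.75 and ACTA2 -0.67, with adjusted exact p from 0.0631 to 0.0935, while NOTCH3 had r = -0.25 and MYH11 -0.15. The smallest follicular libraries lay at the low end of that component, whereas luteal 3, the smallest luteal library, lay near its high end at 47.7. The part of depth in the levels of RGS5 was not tested. With the component taken out, r was 0.34 for RGS5 with ABCC9, -0.34 for RGS5 with TAGLN, 0.46 for ACTA2 with TAGLN, 0.93 for ACTA2 with MYH11 and 0.90 for NOTCH3 with PDGFRB, given as values without a test.

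The members were also set beside 12 endothelial markers. Their summed level was 388 to 629 CPM in luteal and 418 to 672 CPM in follicular libraries, with none of them at 0. Of the 12, 8 averaged higher and 4 lower in luteal libraries (median log2 fold change 0.12), and 0 passed edgeR. At an unadjusted edgeR p under 0.05 there were 3, of which 2 were higher and 1 lower. CDH5 had a log2 fold change of 0.54 (SE 0.17), KDR 0.36 (SE 0.15) and SLCO1A2 -0.81 (SE 0.19). The markers did not all move together within a phase, so their mean is no measure of vessel content. EGFL7 was at 298 CPM in luteal 1 against 157 and 123 CPM in luteal 3 and 5, CLDN5 at 75.3 against 38.3 and 32.3 CPM, and EMCN, the other way, at 25.0 against 33.5 and 32.2 CPM. In follicular 5 EGFL7 and CLDN5 had their lowest and EMCN, CDH5 and FLT1 their highest follicular level. Within phase the mean of these markers had r = 0.84 for ACTA2, 0.77 for TAGLN and 0.57 for MYH11, and negative r for RGS5 (-0.79) and ABCC9 (-0.67). The adjusted exact p over the 10 members was 0.0563 for ACTA2, TAGLN and RGS5, so that 0 passed, and 3 had an unadjusted p under 0.05, at 0.00993, 0.0165 and 0.0169. By rank correlation ACTA2 passed (rho = 0.90, exact p = 0.00333, adjusted exact p = 0.0333). For TAGLN rho was 0.79 (exact p = 0.0146) and for RGS5 -0.47 (exact p = 0.198). How many genes outside the members follow the endothelial markers as closely was not computed.

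Without its 2 farthest libraries the relation to endothelial markers had r = 0.80 for ACTA2 and 0.61 for TAGLN. It had r = 0.28 for MYH11 (unadjusted exact p = 0.0915 with all libraries), -0.40 for ABCC9 (0.0528) and -0.17 for RGS5, the last without luteal 5 and follicular 5. With 1 library left out, r for RGS5 was -0.894 to -0.681. NOTCH3 (r = 0.22), PDGFRB (-0.28), MCAM (-0.17) and AOC3 (-0.34) had unadjusted exact p from 0.358 to 0.691. The endothelial markers followed the first principal component too (r = -0.76, exact p = 0.0156, adjusted p = 0.0631). With that component taken out r was 0.68 for ACTA2, 0.47 for TAGLN and 0.72 for MYH11, and -0.37 for RGS5 and -0.20 for ABCC9, given as values without a test.

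**Figure D4:**
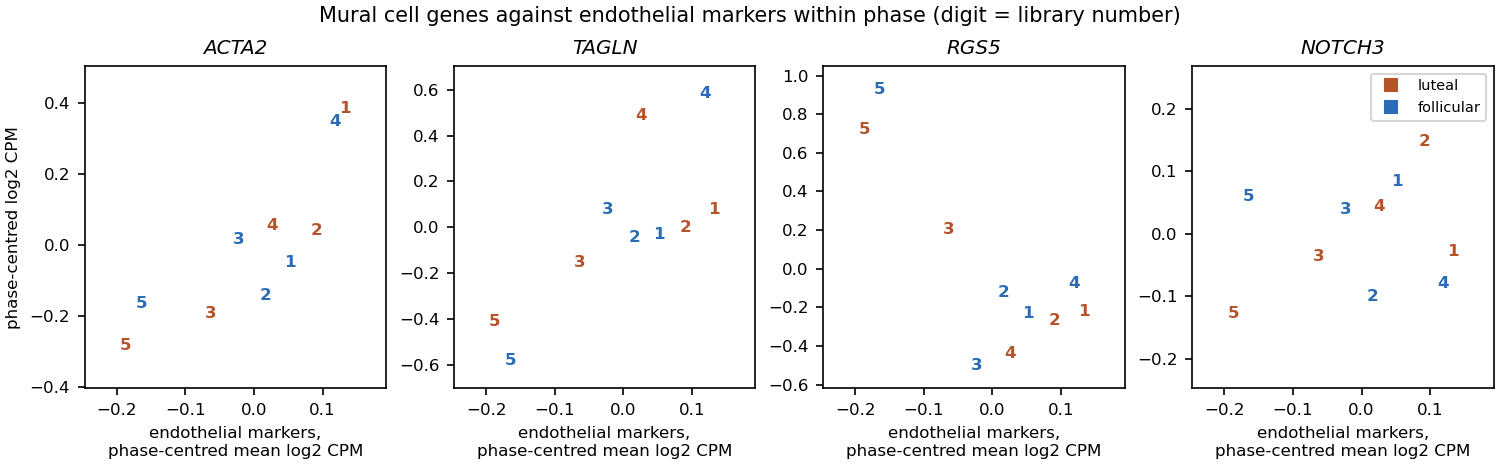
Phase-centred log2 CPM of ACTA2, TAGLN, RGS5 and NOTCH3 (vertical axes) against the phase-centred mean log2 CPM of 12 endothelial markers (horizontal axes), 1 digit per library, luteal and follicular in different colours. ACTA2 and TAGLN are higher where the marker mean is higher (r = 0.84 and 0.77), RGS5 is highest in the libraries numbered 5, and NOTCH3 shows no clear slope (r = 0.22).

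The genes outside the members whose within-phase pattern was most like that of NOTCH3, among 16207 genes averaging at least 1 CPM, were ITPRIPL1 (r = 0.89), CRB2 (0.87), LOC114110806 (0.86), CRTAP (0.86) and ADRA1B (0.84), over 10 libraries. PDGFRB ranked 89th of the 16207 by the same measure. For ACTA2 the 5 most alike were MT1B (r = 0.98), MEPCE (0.94), SOX18 (0.93), WFDC1 (0.93) and TNK2 (0.93), of which SOX18 is a transcription factor of endothelium. SOX18 was highest in luteal 1 and follicular 4, at 15.1 and 15.4 CPM, the libraries that were also highest in ACTA2. Seen from MYH11, ACTA2 ranked 18th of the 16207. Other pairs ranked lower. MYH11 ranked 450th and TAGLN 1025th as seen from ACTA2, and NOTCH3 273rd as seen from PDGFRB. ABCC9 ranked 2957th as seen from RGS5, and RGS5 608th as seen from ABCC9.

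Of 32 other genes of the Notch pathway 23 averaged higher and 9 lower in luteal libraries, and 0 passed edgeR. The other receptors NOTCH1, NOTCH2 and NOTCH4 had log2 fold changes of 0.27 (SE 0.19), 0.49 (SE 0.22) and -0.03 (SE 0.10). Among 5 ligands 3 averaged higher and 2 lower, with JAG1, the ligand that endothelium presents to NOTCH3, at 40.9 ± 6.89 CPM in luteal and 30.1 ± 6.91 CPM in follicular libraries (SD, n = 5 each; log2 fold change 0.44, SE 0.17), and DLL4, a ligand of arterial and sprouting endothelium, at 21.8 ± 8.72 CPM in luteal and 33.9 ± 13.5 CPM in follicular libraries (-0.64, SE 0.31). Of 18 genes for receptor processing and transcriptional cofactors 13 averaged higher and 5 lower (median 0.18). MAML3, a coactivator of the Notch complex, had 0.59 (SE 0.21), POFUT1, which adds fucose to Notch receptors, 0.36 (SE 0.15), MFNG, a fringe glycosyltransferase, -0.40 (SE 0.16) and PSEN2, a catalytic subunit of gamma-secretase, -0.35 (SE 0.15). For the receptors, ligands and cofactors edgeR gave adjusted p between 0.426 and 0.902.

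Of the 6 Notch target genes, 5 averaged higher and 1, HES1, lower in luteal libraries (median log2 fold change 0.24). HEYL, a transcriptional repressor induced by Notch in mural cells, was at 41.9, 43.0, 40.7, 48.6 and 37.6 CPM in luteal libraries, against 33.6, 34.4, 35.7, 33.0 and 35.7 CPM in follicular libraries. All 5 luteal values lay above the follicular ones, with a log2 fold change of 0.30 (SE 0.09, edgeR adjusted p = 0.426). HES4 averaged 6.90 ± 1.88 CPM in luteal and 3.22 ± 1.71 CPM in follicular libraries (SD, n = 5 each; log2 fold change 1.08, SE 0.34, edgeR adjusted p = 0.426), with overlap through luteal 1 and follicular 5. HEY2, an arterial target, had a log2 fold change of 0.57 (SE 0.25) and HES1 one of -0.17 (SE 0.17). Within phase HEYL had the highest r of the 6 targets with NOTCH3, 0.57 (rho = 0.58), without passing the exact permutation test (p = 0.124 for r and 0.11 for rho, adjusted p = 0.637 and 0.557 over 6 targets), and r was 0.50 without luteal 2 and 5.

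**Figure D5:**
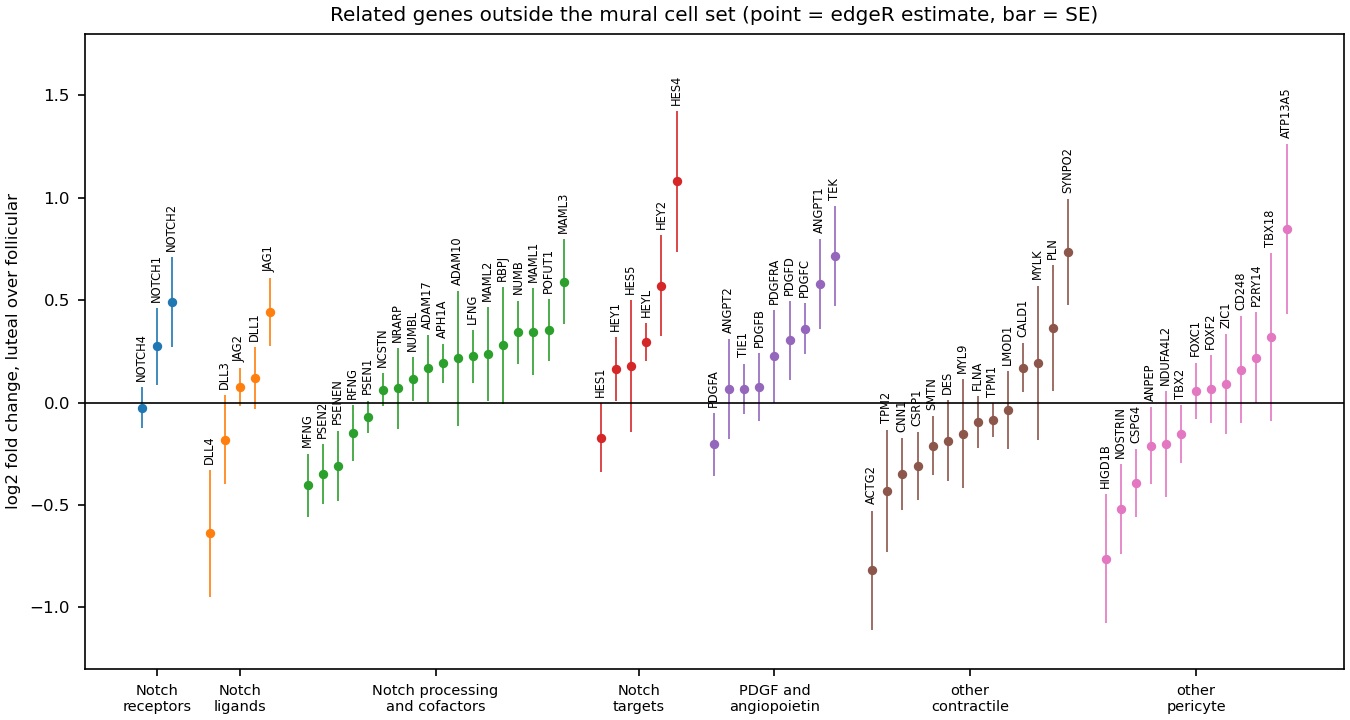
Log2 fold change, luteal over follicular, of 68 tested genes of the Notch pathway, of PDGF and angiopoietin signalling, and of other contractile and pericyte lists (points, edgeR estimates; bars, SE), ordered by value within each list. Notch targets and PDGF and angiopoietin genes lie mostly above 0 and other contractile genes mostly below 0, and none passed edgeR.

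Of the PDGF and angiopoietin genes, 8 of 9 averaged higher in luteal libraries (median log2 fold change 0.23), and 0 passed edgeR. PDGFB, the ligand of PDGFRB, had a log2 fold change of 0.07 (SE 0.17) and PDGFC, which acts mainly on PDGFRA, 0.36 (SE 0.12). ANGPT1, an angiopoietin that mural cells make, averaged 3.23 ± 0.58 CPM in luteal and 2.14 ± 0.55 CPM in follicular libraries (SD, n = 5 each), and its endothelial receptor TEK 17.9 ± 4.74 CPM in luteal and 10.9 ± 3.61 CPM in follicular libraries. Log2 fold changes were 0.58 (SE 0.22) for ANGPT1 and 0.72 (SE 0.24) for TEK, both with edgeR adjusted p = 0.426.

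Of 14 other smooth muscle genes 4 averaged higher and 10 lower in luteal libraries (median log2 fold change -0.12), with 0 passing edgeR. ACTG2, gamma smooth muscle actin, averaged 1.90 ± 0.66 CPM in luteal and 3.35 ± 1.25 CPM in follicular libraries (SD, n = 5 each; log2 fold change -0.82, SE 0.29), and CNN1, calponin, 13.6 ± 3.14 CPM in luteal and 17.3 ± 2.97 CPM in follicular libraries (-0.35, SE 0.18). SYNPO2, an actin-binding protein of smooth muscle, had the highest value of the list, 0.73 (SE 0.26). For these 3 genes edgeR gave adjusted p between 0.426 and 0.428. The regulators of this programme, SRF, MYOCD, MRTFA and MRTFB, had log2 fold changes from -0.17 to 0.37, with SRF at 51.6 ± 4.68 CPM in luteal and 51.5 ± 1.38 CPM in follicular libraries.

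A list of 16 other pericyte genes had 14 matched and 13 tested, of which 7 averaged higher and 6 lower in luteal libraries (median log2 fold change 0.06), and 0 passed edgeR. CSPG4, the pericyte proteoglycan NG2 that oligodendrocyte precursors also carry, averaged 12.4 ± 2.69 CPM in luteal and 16.3 ± 2.04 CPM in follicular libraries (SD, n = 5 each; log2 fold change -0.39, SE 0.17). HIGD1B, a mitochondrial protein used as a pericyte marker in mouse, had -0.76 (SE 0.32), and NOSTRIN had -0.52 (SE 0.22). ATP13A5 had the highest value of the list, 0.85 (SE 0.41), at a low level that averaged 0.42 CPM in luteal and 0.22 CPM in follicular libraries. VTN, a pericyte marker of mouse brain, averaged 0.02 ± 0.03 CPM in luteal and 0.06 ± 0.05 CPM in follicular libraries and was not tested. The 10 members were each detected, with at least 86 reads in every library. Read counts do not show which cells carried them. The mural label thus comes from the way the set was chosen and was not tested.

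Markers of other cells that could carry member transcripts were set beside them. The 9 fibroblast and leptomeningeal markers summed to 749 to 947 CPM in luteal and 770 to 897 CPM in follicular libraries, with 6 averaging higher and 3 lower, and none at 0. Of the 6 matched skeletal muscle markers, which share actin and myosin relatives with the contractile members, the sum was 27.8 to 36.0 CPM in luteal and 20.0 to 45.2 CPM in follicular libraries, most of it ACTA1. All 7 choroid plexus markers averaged higher in luteal libraries (median log2 fold change 0.58), in sum 37.6 to 121 CPM in luteal and 25.4 to 58.2 CPM in follicular libraries, and all 6 oligodendrocyte markers averaged lower (median -0.36), in sum 509 to 1281 CPM in luteal and 827 to 1400 CPM in follicular libraries. The part of these cells in the member values was not tested. No gene of these lists passed edgeR. The choroid plexus marker SLC4A5 had all luteal values above the follicular ones (log2 fold change 1.09, SE 0.29, edgeR adjusted p = 0.426).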

How the data were processed

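TriReagent was used for RNA extraction and a stranded TruSeq mRNA kit for the libraries, per the labels' protocols. Among the tools in the submitters' processing notes are the aligner TopHat2 2.1.1 and the counter featureCounts 2.0.0, while the genome build, strand setting and treatment of shared reads are not given in the sources used here. What the authors deposited is 1 table of raw read counts. Of the gene identifiers 31873 (94.4%) were found in the RefSeq genes of ARS-UI_Ramb_v3.0. That reference gave 492 symbols, and its coordinates were used only to find neighbours of the members.

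Counts were analysed with edgeR 4.0.16 in R 4.3.3, by the quasi-likelihood F-test, two-sided, on phase alone, after filterByExpr (minimum count 10, minimum total 15) and TMM scaling. All 10 members were among the 18276 genes tested. P-values were adjusted by Benjamini-Hochberg with a threshold of 0.05, and a standard error is the log2 fold change divided by the square root of F. Correlations were taken on log2 CPM (prior count 2) centred per phase, and exact permutation of libraries within phase (14400 arrangements). They are correlations over mixes of different ewes, and p-values measure the spread between such mixes. The members and gene lists were chosen with earlier results of these data known. Of each list outside the members up to 4 genes with the smallest p were to be named, with the 5 genes most like NOTCH3 and ACTA2. This rule was not followed for every list, the cell markers among them. PDGFB, HES1, VTN, DLL4, ABCC8, KCNJ11, NOTCH4, AOC2 and ACTA1 are named for their roles or as relatives, some after their values were seen. EGFL7, CLDN5, EMCN and FLT1 are named to show how endothelial markers differed within a phase. The correlations with Notch targets and with the first principal component were added after seeing the data. Alternatives included DESeq2 1.42.0 and limma-voom (limma 3.58.1). No 2 libraries of a phase agreed within sampling noise (chi-square per degree of freedom from 12.8 to 162.6), and scripts were tested on simulated data.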

Additional observations from a re-analysis of the deposited data

Results flagged for a closer look

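The gap between an extreme library and its neighbour, as a share of the range over the 5 libraries of a phase, was set against Dixon's 95% limit for 5 samples, 0.71. It was larger in 2 of 36 groups of libraries, and chance gives about 1 in 20, or 1.8. RGS5 was at 57.6 CPM in follicular 5, with the next follicular library at 28.6 CPM. MYH11 was at 71.5 CPM in follicular 4, with the next follicular library at 46.0 CPM.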

How the results depend on the processing

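The edgeR count of genes called was 0 with all libraries and stayed 0 under RLE scaling, without a filter, with a minimum of 1 CPM in 5 libraries, without follicular 1 and 3 together and with the first principal component in the model, as it did by limma-voom. DESeq2 called 35 genes, 19 higher and 16 lower in luteal libraries, 2 of them members. Leaving out 1 library gave 0 to 1 genes, the 1 being VGF without luteal 4 (lower in luteal libraries, edgeR adjusted p = 0.00428), which is no mural gene and was chosen after its values were seen. The median log2 fold change of the members was 0.25 and ran from 0.16 to 0.43 with 1 library left out, and it was 0.12 without follicular 1 and 3 together (5 higher, 5 lower) and 0.11 with the first principal component in the model (7 higher, 3 lower). With the replicate number as a block it was 0.27 and 0 genes were called. The edgeR adjusted p was then 0.143 for NOTCH3, MCAM, AOC3 and KCNJ8, against 0.426 to 0.437 without the block. Same-numbered libraries deviated together, with a correlation over 0.1, in 3 of 5 pairs (correlations from -0.33 to 0.63). Between libraries of different number the correlations ran from -0.56 to 0.48. Of the 10 libraries 4 were closest to their own number. The numbers name mixes of different ewes and were not taken as pairs, and whether they carry anything shared was not tested. Pairs of members past the threshold numbered 0, against 1 by Spearman rank correlation (ACTA2 with TAGLN) and 0 to 1 with 1 library left out (RGS5 with TAGLN without follicular 4). Members tied to endothelial markers numbered 0, against 1 by Spearman rank correlation (ACTA2) and 0 to 2 with 1 library left out (TAGLN without luteal 4, ACTA2 and MYH11 without follicular 5). The cause of these changes was not tested. NOTCH3, PDGFRB, MCAM, AOC3, ABCC9, KCNJ8 and ACTA2 kept their sign in all 18 other settings, a description only, since the same contrast chose the set. With that component in the model the log2 fold change was -0.27 for RGS5, 0.13 for TAGLN and 0.02 for MYH11, against 0.20, -0.18 and -0.03 without it, 0.10 for ABCC9 against 0.51, 0.19 for PDGFRB against 0.30 and -0.01 for ACTA2 against -0.18.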
